A study of Mus musculus with 10 samples.

Results

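The genes described here are 10 that encode matrix glycoproteins, proteoglycans and crosslinking enzymes: Fn1, Fbn1, Sparc, Postn, Tnc, Spp1, Bgn, Vcan, Lox and Loxl2. They were taken by gene symbol, not by their values, and all 10 were found among the 24202 genes of the deposited table. RNA was sequenced in bulk from 10 whole MB-49 tumors, each started by injecting 100000 cells of this mouse bladder cancer line subcutaneously into the flank. All hosts were hLrrc32 knock-in mice (Lrrc32 encodes GARP, a surface protein that holds latent TGF-beta), so the controls carry the same allele. In 5 tumors the mice had received PIIO-1, an antibody against GARP, as 2 intraperitoneal doses of 200 ug (days 6 and 9), and in 5 tumors PBS; collection was on day 10. The sample names call the antibody a4D3. Separate animals are not stated in the labels, and p-values therefore reflect only how these samples vary, which may be technical in part.

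Fibronectin and fibrillins assemble into the fibres on which collagen and elastin are laid down, and fibrillin fibres also tether latent TGF-beta. Matricellular proteins such as SPARC, periostin, tenascin-C and osteopontin do not build the scaffold but bind to it and to cell receptors, and lysyl oxidases stiffen it by crosslinking collagen and elastin. Activated fibroblasts are a well known source of many of these products, several of which TGF-beta induces, while macrophages and cancer cells can also make fibronectin and osteopontin.

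The libraries held 29689555 to 35299028 reads in genes in PIIO-1 tumors, against 18843192 (tumor 4) to 37581521 (tumor 3) in PBS tumors. Along the first principal component of the genes tested (25.4% of the variance) PIIO-1 tumor 5 lay farthest out, and along the second (14.6%) PBS tumor 4 did. Among epithelial markers Krt8 averaged 59166 normalized counts in PIIO-1 and 56281 in PBS tumors, whereas Epcam averaged 17.7 in PIIO-1 and 24.0 in PBS tumors. Cdh1 averaged 762 in PIIO-1 and 468 in PBS tumors (adjusted p = 0.837 by limma), and Krt19 128 and 88.8. The uroplakin gene Upk1a averaged 28.5 in both groups, while Upk2 and Upk3a lay under the minimum mean of 10 normalized counts. Of the 8 epithelial markers tested, 4 had a higher mean log2 level in PIIO-1 tumors. All 14 fibroblast markers passed the same minimum. Their summed level was 4737 to 6034 normalized counts in PIIO-1 tumors and 4999 to 6035 in PBS tumors, highest in PBS tumor 3. Col6a3, with means of 2301 in PIIO-1 and 2598 in PBS tumors, and Thy1, with 1595 and 1701, supplied most of that sum. Other markers were low, such as Lum with means of 26.9 in PIIO-1 and 17.3 in PBS tumors and Dpt with 26.6 and 20.9. The 14 macrophage markers summed to 55988 to 99065 normalized counts in PIIO-1 tumors and 62832 to 110104 in PBS tumors. In bulk RNA fewer cells of a type and less RNA per cell cannot be told apart.

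No matrix gene of the 10 passed the test between PIIO-1 and PBS tumors. Levels are normalized read counts, and differences are PIIO-1 minus PBS in log2(normalized count + 1), with limma's standard error (SE); a gene was called at an adjusted p under 0.05. All 10 passed the minimum mean, 0 were called, and over all 16767 genes tested 0 were called as well (0%). At an unadjusted p under 0.05, 0 of the 10 passed with all 10 tumors, against 5.63% of all genes tested. The groups overlapped for all 10 genes, while 0.853% of all genes had groups that did not overlap. Of the 10 differences, 5 were positive and 5 negative, and their median was -0.0038, beside 0.0027 over all genes tested. edgeR and DESeq2 on the whole reads recovered from the same values also called 0 of the 10, with 0 at an unadjusted p under 0.05 by either tool.

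**Figure D1:**
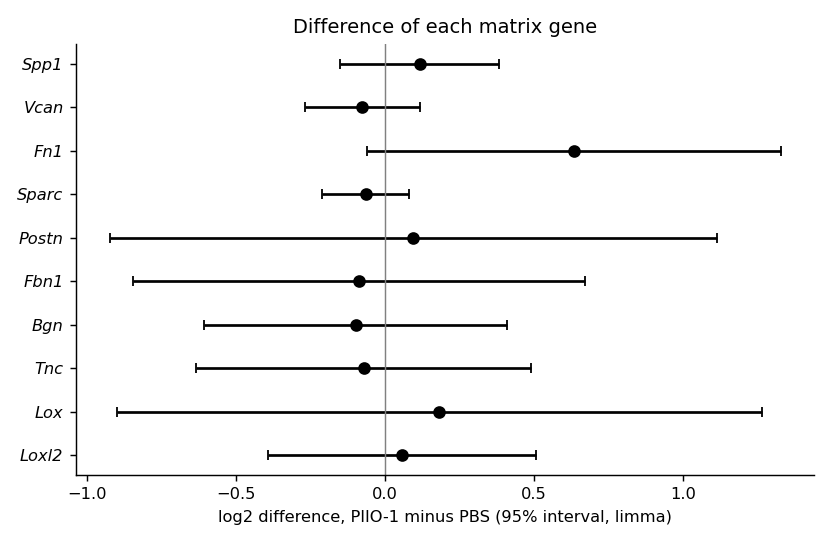
Difference of each matrix gene, PIIO-1 minus PBS in log2(normalized count + 1) (x axis), with the limma estimate as a point and the 95% interval as a bar. Every interval crosses 0; those of Sparc, Vcan and Spp1 are narrow, and those of Lox, Postn and Fn1 reach past 1.

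The intervals set how much these tumors could show. For Sparc the 95% interval ran from -0.21 to 0.08, for Vcan from -0.27 to 0.12 and for Spp1 from -0.15 to 0.38. For Fn1 it ran from -0.061 to 1.33, for Postn from -0.92 to 1.11 and for Lox from -0.90 to 1.26. Thus 7 of the 10 intervals stayed within 1 log2 unit of 0 on both sides, and those of Fn1, Postn and Lox did not. The median within-group SD of the log2 values was 0.45 for the 10 genes, beside 0.17 over all genes tested.

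Fn1 encodes fibronectin, the adhesive glycoprotein that integrins assemble into fibrils (chromosome 1, 71585520 to 71653200, minus strand, GRCm38). Its levels were 11245, 11092, 14623, 12175 and 10429 normalized counts in PIIO-1 tumors 1 to 5, against 3725, 5078, 8252, 10477 and 15763 normalized counts in PBS tumors 1 to 5. The PIIO-1 tumors sat close together inside the range of the PBS tumors: all 5 lay above the PBS median and 0 above the highest PBS tumor. Within groups the highest tumor was 1.40-fold above the lowest in PIIO-1 and 4.23-fold in PBS, and the coefficient of variation was 13.8% in PIIO-1 and 55.1% in PBS; the difference in spread was not tested. Means were 11913 ± 1638 in PIIO-1 and 8659 ± 4772 in PBS tumors (SD, n = 5 each), and the difference of 0.63 (SE 0.32) had an adjusted p of 0.837 by limma. This was the largest difference of the 10, and it came to 0.46 by edgeR. It was 0.38 without PBS tumor 1 and 0.90 without PBS tumor 5 (limma, unadjusted p = 0.00562, adjusted p = 0.620). An antisense gene that overlaps an Fn1 exon, Apol7d, averaged 3.58 normalized counts, and without a stated strand setting reads of overlapping genes cannot be told apart.

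Fbn1 encodes fibrillin-1, the core of the microfibrils around elastin (chromosome 2, 125300594 to 125507993, minus strand). It had 677, 251, 207, 262 and 175 normalized counts in PIIO-1 tumors 1 to 5, against 264, 204, 352, 498 and 232 normalized counts in PBS tumors 1 to 5. PIIO-1 tumor 1 was the highest of all 10 and PIIO-1 tumor 5 the lowest, so the PIIO-1 tumors spanned the whole range. Tumor 1 was 2.58-fold above the next PIIO-1 tumor. The difference between the groups was -0.086 (SE 0.35, adjusted p = 0.977 by limma), and without PIIO-1 tumor 1 it was -0.41.

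**Figure D2:**
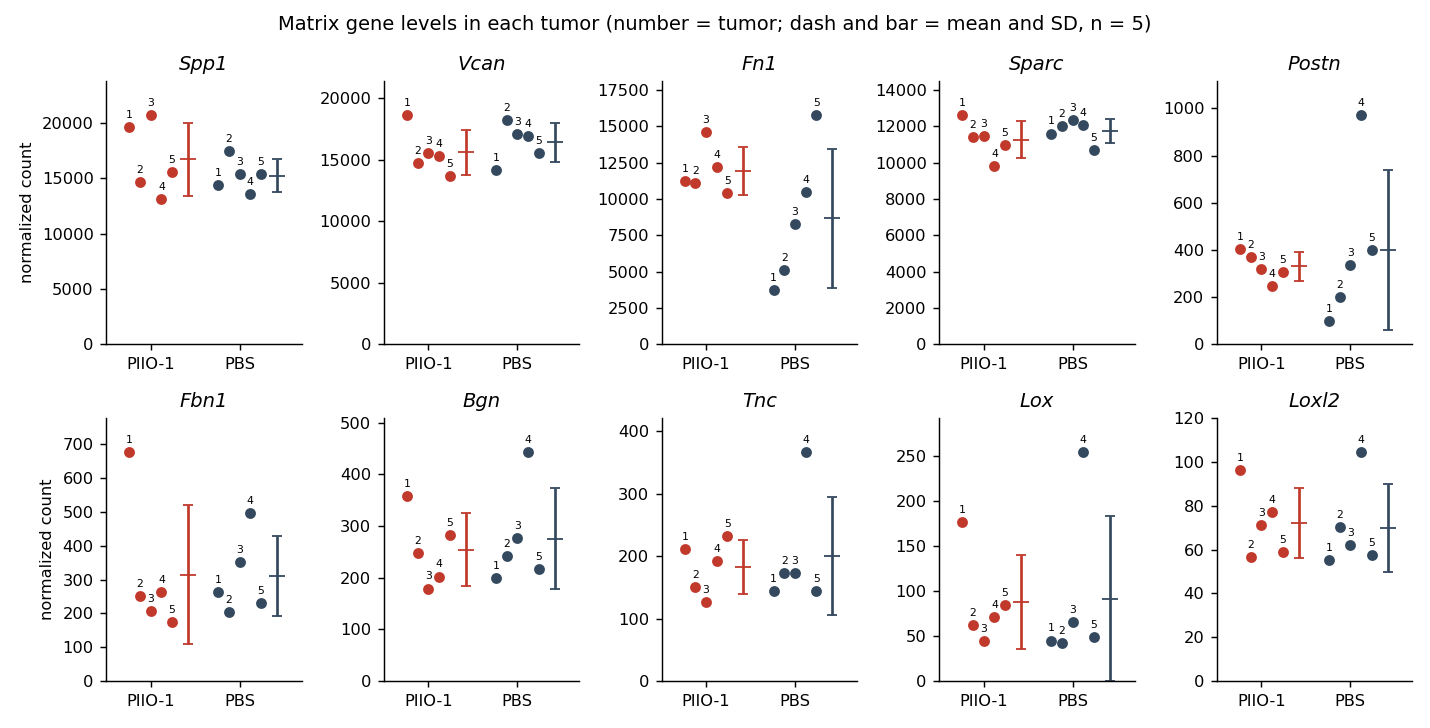
Normalized counts (y axis, linear, starting at 0) of the 10 matrix genes in each tumor, PIIO-1 in red on the left and PBS in blue on the right of each panel, with the tumor number at each point and the mean ± SD (n = 5) as a bar. The groups overlap in every panel; PBS tumor 4 tops the PBS points for Postn, Fbn1, Bgn, Tnc, Lox and Loxl2, and the PBS points for Fn1 are far more spread than the PIIO-1 points.

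Among the matricellular genes, Sparc varied least between tumors. It encodes SPARC (osteonectin), a collagen-binding glycoprotein (chromosome 11, 55394500 to 55423183, minus strand). Its levels were 12609, 11420, 11483, 9807 and 11002 normalized counts in PIIO-1 tumors 1 to 5, against 11609, 12008, 12363, 12100 and 10710 in PBS tumors 1 to 5. The tumors of both groups lay almost on one level, and the highest was PIIO-1 tumor 1 and the lowest PIIO-1 tumor 4. The difference was -0.065 (SE 0.067, adjusted p = 0.892 by limma), the smallest SE of the 10.

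Spp1 encodes osteopontin, a secreted phosphoprotein that binds integrins and CD44 (chromosome 5, 104435118 to 104441050, plus strand). It had 19634, 14653, 20713, 13102 and 15588 normalized counts in PIIO-1 tumors 1 to 5, against 14451, 17525, 15375, 13560 and 15384 normalized counts in PBS tumors 1 to 5. PIIO-1 tumors 3 and 1 were the highest and PIIO-1 tumor 4 the lowest, with the PBS tumors between them. The difference was 0.12 (SE 0.12, adjusted p = 0.892 by limma). Gm42793, annotated on the same strand over Spp1 exons, averaged 53.0 normalized counts.

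Postn encodes periostin, which links collagen, tenascin-C and fibronectin (chromosome 3, 54361109 to 54391037, plus strand). Its levels were 402, 371, 321, 248 and 308 normalized counts in PIIO-1 tumors 1 to 5, against 100.3, 199.9, 335, 971 and 399.6 normalized counts in PBS tumors 1 to 5. As with Fn1, the PIIO-1 tumors lay inside the PBS range, and PBS tumors 4 and 1 were the highest and the lowest of all 10. The highest tumor was 1.62-fold above the lowest in PIIO-1 and 9.68-fold in PBS. The difference was 0.095 (SE 0.46, adjusted p = 0.982 by limma), and its sign depended on the fit, with -0.26 by edgeR and 0.51 without PBS tumor 4.

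Tnc encodes tenascin-C, a large glycoprotein laid down in wounds and tumor stroma (chromosome 4, 63959785 to 64047015, minus strand). It had 212, 151, 126, 193 and 231 normalized counts in PIIO-1 tumors 1 to 5, against 144, 173, 173, 367 and 145 in PBS tumors 1 to 5. PBS tumor 4 was 2.12-fold above the next PBS tumor and above every PIIO-1 tumor, while the other 4 PBS tumors lay within the PIIO-1 range. The difference was -0.071 (SE 0.26, adjusted p = 0.977 by limma).

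The proteoglycan genes were Bgn and Vcan. Bgn encodes biglycan, a small leucine-rich proteoglycan that binds collagen (chromosome X, 73483602 to 73495933, plus strand). Its levels were 358, 248, 179, 202 and 283 normalized counts in PIIO-1 tumors 1 to 5, against 199, 242, 276, 443 and 217 in PBS tumors 1 to 5. PBS tumor 4 was again the highest of all 10 and PIIO-1 tumor 1 the second, and the difference was -0.098 (SE 0.23, adjusted p = 0.964 by limma). Vcan encodes versican, a large chondroitin sulfate proteoglycan that binds hyaluronan (chromosome 13, 89655312 to 89742509, minus strand). It had 18587, 14697, 15567, 15322 and 13691 normalized counts in PIIO-1 tumors 1 to 5, against 14178, 18237, 17097, 16893 and 15540 in PBS tumors 1 to 5. The highest Vcan tumor was PIIO-1 tumor 1 and the lowest PIIO-1 tumor 5, and the difference was -0.076 (SE 0.088, adjusted p = 0.903 by limma).

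The bases before the transcription start are shown for Tnc and Bgn, which varied together across tumors as described further on, and for Spp1, which had the highest level per length. They are RefSeq sequences on GRCm38.p6, the 250 bases before the start, written 5′ to 3′ on the strand of the gene; capitals mark TATAAA (the TATA box core) and GGGCGG (the GC box that Sp1 binds) on either strand, so the GC box reads CCGCCC where it lies on the other strand. They lie at chr4:64047016-64047265 (minus strand) for Tnc, chrX:73483351-73483600 (plus strand) for Bgn and chr5:104434861-104435110 (plus strand) for Spp1.
Tnc: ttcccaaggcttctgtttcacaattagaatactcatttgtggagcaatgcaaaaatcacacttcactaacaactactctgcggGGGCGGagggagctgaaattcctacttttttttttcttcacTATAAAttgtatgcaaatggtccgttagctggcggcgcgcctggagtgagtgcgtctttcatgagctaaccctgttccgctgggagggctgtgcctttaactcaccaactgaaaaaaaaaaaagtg
Bgn: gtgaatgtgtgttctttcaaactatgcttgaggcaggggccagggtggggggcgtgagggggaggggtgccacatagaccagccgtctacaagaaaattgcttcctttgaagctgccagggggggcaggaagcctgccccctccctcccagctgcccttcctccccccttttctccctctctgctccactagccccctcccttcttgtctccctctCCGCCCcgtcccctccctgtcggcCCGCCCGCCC
Spp1: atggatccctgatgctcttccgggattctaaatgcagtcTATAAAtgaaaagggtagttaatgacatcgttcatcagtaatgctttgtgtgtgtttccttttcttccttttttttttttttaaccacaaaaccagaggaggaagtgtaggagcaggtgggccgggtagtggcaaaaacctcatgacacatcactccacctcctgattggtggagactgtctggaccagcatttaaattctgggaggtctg
Of the 10 genes, 7 were found in the RefSeq promoter table. In their 250 bases TATAAA occurred in 3 of 7 (Postn, Tnc and Spp1), beside 12.4% of all 32851 promoters of that length. The GC box occurred in 4 of 7, beside 32.7% of all promoters. The AP-1 site TGANTCA occurred in 0 of 7, beside 6.75% of all, and the SMAD box CAGAC in 2 of 7, beside 42.2% of all; all 4 motifs were searched on both strands. Tnc holds both TATAAA, starting at base -126 counted from the start site, and a GC box starting at base -167, and these do not overlap. Bgn holds 3 GC box matches, of which 2 share bases, and no TATAAA. In Postn TATAAA starts at base -26 and in Spp1 at base -211. These matches are descriptions of the letters in these windows, counted at any distance from the start. Whether any of them works as a TATA box or GC box was not tested.

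Of the crosslinking enzymes, Lox encodes lysyl oxidase, which oxidizes lysines in collagen and elastin so that they can crosslink. It had 177, 62.6, 44.2, 70.9 and 84.4 normalized counts in PIIO-1 tumors 1 to 5, against 44.9, 41.9, 65.3, 254 and 49.1 normalized counts in PBS tumors 1 to 5. PBS tumor 4 was 3.89-fold above the next PBS tumor and PIIO-1 tumor 1 was 2.10-fold above the next PIIO-1 tumor, with the other 8 tumors far below both. The difference was 0.18 (SE 0.49, adjusted p = 0.971 by limma); leaving out PBS tumor 4 gave 0.65, and leaving out PIIO-1 tumor 1 gave -0.11. The lowest Lox value rested on 43 reads, the fewest of any value of the 10 genes. Loxl2 encodes a related amine oxidase that acts on collagen IV (chromosome 14, 69609068 to 69695834, plus strand). It had 96.5, 56.8, 71.4, 77.3 and 59.0 normalized counts in PIIO-1 tumors 1 to 5, against 55.4, 70.2, 62.1, 104.5 and 57.7 normalized counts in PBS tumors 1 to 5. The same 2 tumors, PBS tumor 4 and PIIO-1 tumor 1, were the highest for Loxl2, and its difference was 0.057 (SE 0.21, adjusted p = 0.977 by limma).

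Per length, the 10 genes fell into a high and a low set. In normalized counts per kilobase of exon, Spp1 averaged 9708, Sparc 3039, Vcan 1105 and Fn1 880 over the 10 tumors. The next gene, Bgn, averaged 43.4, followed by Postn with 42.0, Fbn1 with 25.7, Tnc with 24.6, Lox with 18.7 and Loxl2 with 13.2. Spp1 was first and Sparc second in every tumor, whereas Vcan and Fn1 changed places between tumors. Among the lower 6, Bgn ranked 5 or 6 and Loxl2 9 or 10 in every tumor, while the ranks of Postn, Fbn1, Tnc and Lox ranged more widely. Together the 10 genes took 0.183% ± 0.0229 of the reads in PIIO-1 tumors and 0.176% ± 0.0177 in PBS tumors (SD, n = 5 each), with an exact two-sided permutation p of 0.635, where the smallest this design allows is 0.00794. Fn1, Sparc, Spp1 and Vcan supplied 97.8% ± 0.540 of those reads in PIIO-1 tumors and 97.5% ± 1.27 in PBS tumors (SD, n = 5 each; exact two-sided permutation p = 0.770).

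**Figure D3:**
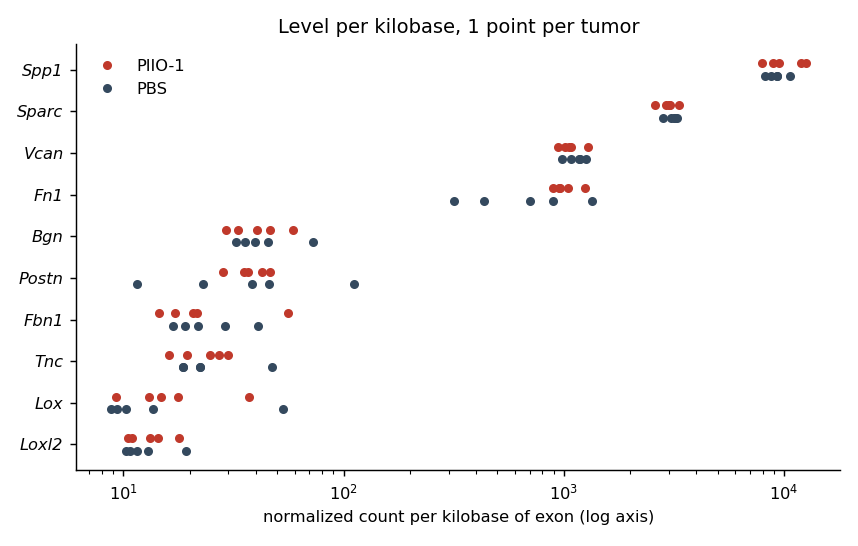
Normalized count per kilobase of exon (x axis, log scale) of each matrix gene, 1 point per tumor, with PIIO-1 tumors in red above PBS tumors in blue. Spp1, Sparc, Vcan and Fn1 lie far to the right of the other 6 genes, and the PIIO-1 and PBS points overlap in every row.

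The lower 6 genes (Postn, Fbn1, Tnc, Bgn, Lox and Loxl2), a set formed after their values were seen, were high in the same tumors. PIIO-1 tumor 1 was the highest PIIO-1 tumor for 5 of the 6, all but Tnc, and for 7 of the 10 genes. PBS tumor 4, the library with the fewest reads, was the highest PBS tumor for all 6, and for 0 of the 4 genes with high levels. PBS tumor 1 was the lowest PBS tumor for 6 of the 10 genes: Fn1, Vcan, Postn, Tnc, Bgn and Loxl2. The part of read depth in this pattern was not tested.

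**Figure D4:**
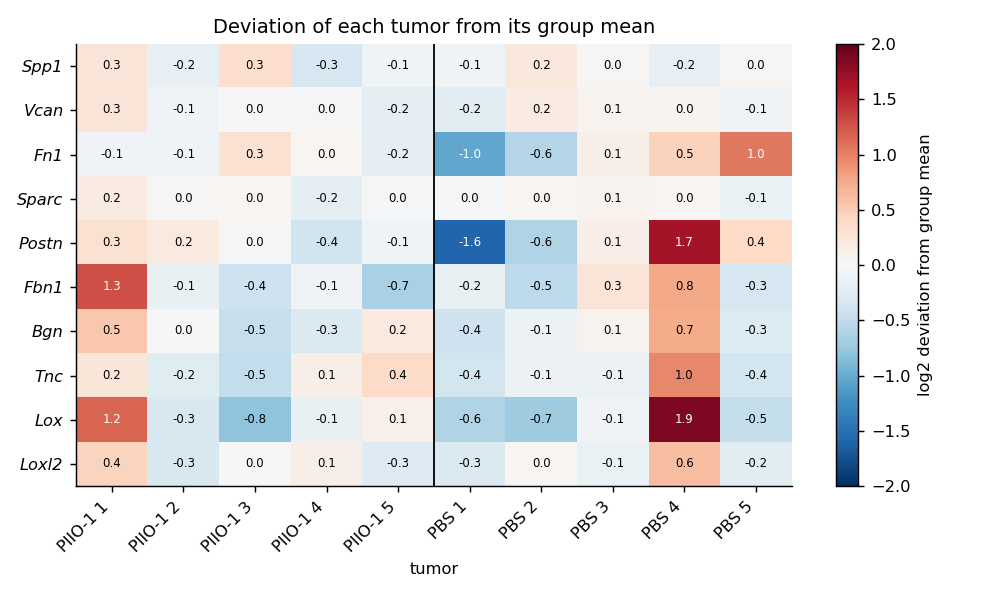
Deviation of each tumor from the mean of its own group on the log2 scale (color and printed number), with the 5 PIIO-1 tumors left of the line and the 5 PBS tumors right of it. PIIO-1 tumor 1 and PBS tumor 4 are high for Fbn1, Bgn, Lox and Loxl2, while the row of Sparc stays near 0.

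Relations among the 10 genes were computed over the 10 tumors after subtracting the mean of each group. The 45 pairs had permutation p-values from 100000 resamples and Benjamini-Hochberg adjustment over the 45. Each resample shuffled the 10 centred values across both groups, as if the groups had the same spread. Because the spreads differ for some genes and the group means were removed first, these p-values may be too small. Lox, Bgn and Tnc varied together: these 3 pairs were the ones that passed an adjusted p of 0.05. Bgn and Lox had a Pearson r of 0.94 (permutation p = 0.00031, adjusted 0.0139) and a Spearman rho of 0.88 (permutation p = 0.00191, adjusted 0.0427). Tnc and Lox had an r of 0.90 (permutation p = 0.00078, adjusted 0.0148) and a rho of 0.90 (permutation p = 0.00087, adjusted 0.0391). Tnc and Bgn had an r of 0.87 (permutation p = 0.00099, adjusted 0.0148) and a rho of 0.85 (permutation p = 0.00285, adjusted 0.0427). For Bgn and Lox r was 0.92 within PIIO-1 and 0.96 within PBS tumors, for Tnc and Lox 0.75 within PIIO-1 and 0.97 within PBS tumors, and for Tnc and Bgn 0.71 within PIIO-1 and 0.98 within PBS tumors. Leaving out the 2 tumors farthest from the median of the first gene of each pair, r was 0.76 for Bgn and Lox, 0.82 for Tnc and Lox and 0.75 for Tnc and Bgn, and with 8 tumors 0 of the 45 pairs passed the adjustment. Leaving out 1 tumor at a time, none of the 45 passed without PIIO-1 tumor 3. Without PBS tumor 4 there were 2, of which Bgn and Lox was 1, and both Tnc pairs lost their call. Without PIIO-1 tumor 5 or PBS tumor 5 there were 6, all 3 pairs among them, and without PIIO-1 tumor 1 the same 3 passed.

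Marker scores of 4 cell types that can make matrix (fibroblasts, pericytes and smooth muscle, macrophages, endothelium) were set beside the 10 genes in the same way, as 40 relations. The fibroblast score, the mean log2 level of its 14 markers, was 6.89 ± 0.40 in PIIO-1 tumors and 6.92 ± 0.27 in PBS tumors (SD, n = 5 each) and was highest in PIIO-1 tumor 1 and, among PBS tumors, in tumor 4. Fbn1 followed it with an r of 0.94 (permutation p = 0.00024, adjusted 0.0096) and a rho of 0.81 (permutation p = 0.00668, adjusted 0.134), and this was the only one of the 40 to pass by r. With the 2 tumors farthest from the median score removed (PIIO-1 tumor 1, PBS tumor 4), r for Fbn1 was 0.77 and with 8 tumors none of the 40 passed. None passed either without PIIO-1 tumor 1 alone or PBS tumor 3 alone, while the call for Fbn1 held without PBS tumor 4 alone. Lox had an r of 0.75 with the fibroblast score (adjusted permutation p = 0.206) and Bgn an r of 0.74 (adjusted permutation p = 0.206), which dropped to 0.37 for Lox and 0.33 for Bgn without those 2 tumors. Fn1 had an r of -0.043 with the fibroblast score (adjusted permutation p = 0.952) and of 0.58 with the macrophage score (adjusted permutation p = 0.389), and neither passed.

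**Figure D5:**
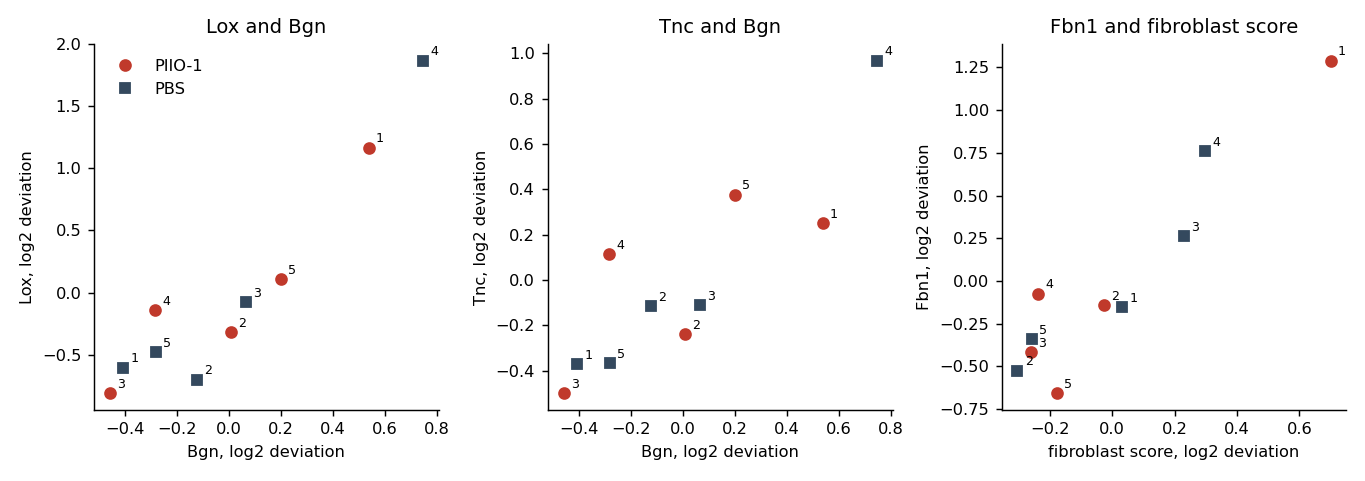
Log2 deviations from the group mean in 10 tumors for Lox against Bgn, Tnc against Bgn and Fbn1 against the fibroblast score, with PIIO-1 tumors as red circles, PBS tumors as blue squares and the tumor number beside each. PBS tumor 4 and PIIO-1 tumor 1 lie at the upper right of the plots of Lox against Bgn and of Fbn1 against the score, where r falls to 0.76 and 0.77 without them.

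The genes whose levels followed each matrix gene most closely were ranked among 11889 genes by Pearson r over the same 10 centred values, as a description with no test. Bgn and Lox shared Col1a1, a collagen I chain, among their 3 closest genes, with an r of 0.94 for Bgn and 0.95 for Lox. Lox was also followed by Garnl3 (0.93) and Serpinf1 (0.92), a marker in the fibroblast list, and Bgn by Lgalsl (0.97) and Axin1 (0.94). The closest genes to Fbn1 were Cd248 (0.95), which encodes endosialin of stromal cells, Tomm70a (0.94) and Rsad1 (0.93). Postn was closest to Msl3 (0.96), Slf2 (0.94) and Fbln2 (0.94), the last a fibulin of elastic fibres. For Fn1 they were Tatdn3 (0.99), Add1 (0.94) and Retnla (0.93), a gene known from alternatively activated macrophages. Tnc was closest to Pou2f1 (0.96), Ddx46 (0.94) and Zfp644 (0.93), and Loxl2 to Zwint (0.96), Mtmr2 (0.95) and Ammecr1 (0.93). Spp1 was closest to Ipo7 (0.97), Cav1 (0.96) and Snhg17 (0.96), Sparc to Cct5 (0.98), Rhot1 (0.96) and Miga2 (0.95), and Vcan to Clock (0.96), Gstt3 (0.95) and Sgsm1 (0.95). All 10 points of each such r share their library. The named genes were picked for the highest r among 11889 genes over 10 points, so a high r is partly a product of the picking. No tumor was left out for these values. Col1a1, Serpinf1 and Fbln2 were all highest in PBS tumor 4, as were Lox, Bgn and Postn. How far their r rests on that tumor was not tested. The cell source of these genes was not tested.

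The other genes of the matrix pathways were taken from 6 lists, and 0 of their genes were called in either direction. Among 11 tested partners of fibronectin, fibrillin and elastic fibres the median difference was 0.051; Eln, which encodes elastin, averaged 16.5 ± 14.7 normalized counts in PIIO-1 and 7.24 ± 5.25 in PBS tumors (difference 0.80, SE 0.59), and Efemp2, a fibulin, differed by 0.14 (SE 0.14). Among 4 tested small leucine-rich proteoglycans and hyalectans the median was 0.13, with Lum at 0.38 (SE 0.47) and Prelp at 0.18 (SE 0.26). Among 12 tested matricellular genes the median was 0.039; Thbs1, which encodes thrombospondin-1, an activator of latent TGF-beta, averaged 32567 ± 13970 normalized counts in PIIO-1 and 22049 ± 3906 in PBS tumors (difference 0.49, SE 0.23), and Cyr61 differed by 0.38 (SE 0.19).

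At an unadjusted p under 0.05 by limma, 5.63% of all genes tested passed, and 0 genes of the lists above. Among 22 tested collagen-modifying and crosslinking enzymes the median was -0.0021, and 2 had an unadjusted p under 0.05. These were Bmp1, the procollagen C-proteinase that also activates lysyl oxidase, with 6379 ± 388 normalized counts in PIIO-1 and 7059 ± 387 in PBS tumors (difference -0.15, SE 0.054), and Crtap, part of a collagen prolyl hydroxylation complex, with a difference of -0.16 (SE 0.071). Among 20 tested matrix receptors the median was 0.054, and 1, Tlr4, had an unadjusted p under 0.05 by limma. Tlr4, which binds biglycan and tenascin-C, differed by 0.23 (SE 0.097). Itgb6, a subunit of an integrin that activates TGF-beta, differed by -0.44 (SE 0.21). Among 14 tested TGF-beta induced genes, of which Tgfbi, Ctgf and Ltbp2 are also in the lists above, the median was 0.12. Here 2 had an unadjusted p under 0.05 by limma and 10 differences were positive, beside 8571 of all 16767 genes tested. Positive differences numbered 11 of 20 among the receptors and 11 of 22 among the enzymes. They numbered 6 of 12 among matricellular genes, 4 of 4 among proteoglycans and 7 of 11 among elastic fibre partners. A shift of a list was not tested. Smad7, an inhibitor of the pathway, averaged 1631 ± 265 normalized counts in PIIO-1 and 1277 ± 229.6 in PBS tumors (difference 0.35, SE 0.14). All 11 genes named from these lists had an adjusted p between 0.837 and 0.927 by limma.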

How the data were processed

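Total RNA from whole tumors was sequenced, and the submitters' processing notes list the build GRCm38 and the tools HISAT2, featureCounts and DESeq2. No version, annotation or strand setting is given in the sources used here. Each deposited value is a signal, a normalized count that the authors scaled per library with DESeq2, per the submitters' processing notes and the table's name. Groups came from the treatment label and tumor numbers from the titles. The limma fits used log2(value + 1) of the 16767 of 24202 genes with a mean of at least 10, which understates changes of low genes. The test was limma 3.58.1 (R 4.3.3) with an intensity trend, two-sided, Benjamini-Hochberg adjusted over all genes, threshold 0.05.

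Dividing each column by its smallest step gave whole reads, and 100% of the values were whole within 0.001 read in all 10 columns. In PIIO-1 tumors 1 and 3 a read is worth close to 1 normalized count (0.995 and 1.01), so the step there stands out less from plain whole numbers. edgeR 4.0.16 and DESeq2 1.42.0 used the reads of all 10 tumors. Further settings changed the pseudocount (0.5, 5), the minimum mean (none, 50), the scaling (TMM, upper quartile) and limma (no trend, array weights), took the tumor number as a block, or left tumors out. The limma, edgeR and DESeq2 steps were tested on simulated data, where the calls of DESeq2 held more false ones than its threshold allows.

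The genes and lists were chosen with earlier results of these data known. Beside the 10 genes, the rule names the 2 genes of smallest p in each matrix list and the 3 genes most like each gene (mean of at least 50, unnamed gene models left out); lists use the table's symbols. A gene under this rule is not reported here. Gene coordinates are from GENCODE on GRCm38, in which 99.0% of symbols matched 1 gene. The level per kilobase divides by all exon bases of a gene, whichever isoform was made. Where an exon of Tnc, Fbn1, Lox or Loxl2 overlaps another gene, the same limit holds as for Fn1.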

Additional observations from a re-analysis of the deposited data

Results flagged for a closer look

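In 3 of the 28 groups of 5 tumors examined (the 10 genes and 4 marker scores in each group), 1 tumor lay so far from the rest that its gap to the nearest other, divided by the range of the group, both on the log2 scale, exceeded 0.710, Dixon's 95% critical value; chance gives about 1 in 20. For Tnc it was PBS tumor 4, with 367 normalized counts and a ratio of 0.805. For Lox it was also PBS tumor 4, with 254 normalized counts and a ratio of 0.756. For the fibroblast marker score it was PIIO-1 tumor 1, with a score of 7.59 and a ratio of 0.756. On the normalized counts themselves, a scale tried after the data were seen, 3 of the 20 groups of gene levels exceeded it: Tnc with 0.870 and Lox with 0.890, both in PBS tumor 4, and Fbn1 with 0.826 in PIIO-1 tumor 1.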

How the results depend on the processing

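Across 22 alternatives, 0 of the 10 genes was called in any, and 199 of 220 differences kept their sign. The 21 that turned belong to 6 genes. By DESeq2 Postn was at -0.28, Fbn1 at 0.024 and Lox at -0.045; by edgeR Postn was at -0.26 and Fbn1 at 0.027. PIIO-1 tumor 5 and PBS tumor 4, which lay farthest out along the first and second principal components, were also left out together. Tnc was then at 0.077, Fbn1 at 0.27 and Bgn at 0.039, and the median of the 10 at 0.18. That setting kept PIIO-1 tumor 1, the highest PIIO-1 tumor for 7 of the 10 genes. The median of the 10 was -0.11 without PIIO-1 tumor 1 alone and 0.14 without PBS tumor 4 alone. Leaving out 1 tumor at a time, the differences ran from -0.30 to 0.51 for Postn, from -0.16 to 0.17 for Tnc, from -0.41 to 0.10 for Fbn1, from -0.23 to 0.089 for Bgn, from -0.11 to 0.65 for Lox and from -0.053 to 0.21 for Loxl2; Fn1 stayed between 0.38 and 0.90, and the smallest adjusted p of any of the 10 was 0.549, for Fn1 without PIIO-1 tumor 1.

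Over all genes limma and edgeR called 0, with 944 and 975 at an unadjusted p under 0.05. DESeq2 called 3 (1 higher, 2 lower; none of the 10 genes) with 1012 at an unadjusted p under 0.05. DESeq2 was run first with its default filtering level of 0.1, which called 1; the level was set to the threshold after that count had been seen. Related pairs numbered 0 to 6 and score relations 0 to 1 with 1 tumor left out, and 0 and 0 with the 2 farthest tumors left out; the cause was not tested.

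With the replicate block, 0 genes were called, as without it. The deviations of same-numbered tumors had correlations across genes of -0.206, -0.125, 0.0954, -0.0207 and 0.0236 for tumors 1 to 5. Differences between single tumors enter these values too, so they cannot tell whether the numbers pair the tumors. Values of Lox rest on as few as 43 reads.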

Other observations

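By ranks, 1 of the 40 relations between the matrix genes and the marker scores passed, that of Fbn1 with the endothelium score (Spearman rho = 0.90, permutation p = 0.00084, adjusted 0.0336), while its Pearson r was 0.72 (permutation p = 0.0245, adjusted 0.206). With the 2 tumors farthest from the median score removed (PIIO-1 tumor 5, PBS tumor 2), r was 0.70. The rho was not computed with tumors left out, so whether the result by ranks holds without them was not tested. Fn1 and Postn, which were both close together in PIIO-1 tumors and far apart in PBS tumors, had an r of 0.75 over all 10 tumors (permutation p = 0.0211, adjusted 0.0874 over the 45 pairs) and a rho of 0.76 (permutation p = 0.015, adjusted 0.135). That r was -0.24 within PIIO-1 tumors and 0.80 within PBS tumors, a difference that was not tested.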
